A study of Xenopus laevis with 12 samples.

Results

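Sox3 peaks in later introns are the ChIP-seq peaks that the HOMER annotation placed in the second or a later intron of a transcript, and they numbered 34913 of 124076 peaks in blastula stem cells at stage 9 and 996 of 5300 peaks in explants induced to a neural plate border state (stage 11.5). They were found from the annotation text alone, as every peak called intronic whose intron was not number 1. No measured signal entered this choice among the listed peaks, although each listed peak had passed the threshold of the peak caller on signal. Peaks of first introns, of which there were 14951 and 541, were used for comparison.

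All explants were animal pole tissue of wild-type Xenopus laevis, a frog whose genome holds an L and an S copy of each chromosome. At stage 9, 3 libraries came from explants given sox3 mRNA with a Myc tag and 3 control libraries came from explants without treatment. At stage 11.5, 3 libraries came from explants given tagged sox3 together with wnt8a and chordin mRNA, which induce a border state, and 3 control libraries came from explants given wnt8a and chordin only. Precipitation was against the Myc tag, so the peaks describe injected Sox3, which the study kept near the endogenous protein level, in pools of explants. The authors deposited 1 peak list per stage, and the header of the stage 9 list, but not that of the stage 11.5 list, says that all replicates entered. The lists give no value per replicate and sequencing depth is unknown, so the stages were compared as 2 lists without a test, and the intervals given are 95% intervals for counting error only. The stages also differed in border induction and in sequencer, and stage, induction and sequencer cannot be told apart. Markers of the explants could not be checked, because the lists hold no expression values.

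Sox3 is a SoxB1 factor, which binds DNA through an HMG domain, often beside a partner such as a POU factor, and SoxB1 factors maintain pluripotent and neural progenitor states. Introns can carry enhancers that act on the host gene or on a neighbour, and they can also contain internal start sites, so the intron in which a peak lies does not by itself name the gene it acts on. In HOMER annotation a peak is called intronic only if its centre is not in a promoter window, an exon or a transcription termination site. The lists name transcripts by internal numbers, of which 0 of 13811 that held a later-intron peak matched the gene table used here, and gene names are therefore not given.

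Later introns made up a smaller part of the stage 11.5 list than of the stage 9 list. They held 28.1% of stage 9 peaks (Wilson interval 27.9 to 28.4%) and 18.8% of stage 11.5 peaks (17.8 to 19.9%), a difference of -9.35 percentage points (Newcombe interval -10.4 to -8.24). First introns held 12.05% and 10.2%, which is a difference of -1.84 points (-2.65 to -0.979). Of all intronic peaks, 70.0% lay in later introns at stage 9 and 64.8% at stage 11.5. On the assembled chromosomes alone the later-intron shares were 28.8% and 21.7%, since unplaced scaffolds carried 5.42% of the later-intron peaks at stage 11.5 but 21.1% of the other stage 11.5 peaks.

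The peaks were concentrated in the early part of the host transcript at both stages. The median intron number was 4 in each list, and the highest was 136 at stage 9 and 115 at stage 11.5. Intron 2 held 25.9% of the stage 9 members and 30.4% of the stage 11.5 members, a difference of 4.51 points (Newcombe interval 1.69 to 7.47). The shares in intron 3 were 15.7% and 17.0%, and those in introns 4 to 5 were 18.0% and 17.9%. Beyond that the order turned, with 20.8% and 18.0% in introns 6 to 10, 14.0% and 12.05% in introns 11 to 20, and 5.53% and 4.72% in intron 21 and above. Over all transcripts, the stage 11.5 list thus had its excess in intron 2. For each class from intron 3 onward the intervals of the stages overlapped. Transcripts of 2 introns, where intron 2 is the only later intron, held 2.66% and 4.42% of members. For 3 to 4 introns the order was reversed, with 54.5% in intron 2 at stage 9 and 50% at stage 11.5. The intron 2 share was higher at stage 11.5 for 5 to 9 introns (31.1% and 33.5%) and 10 to 19 (19.6% and 22.9%). The same held for 20 to 29 (15.7% and 18.6%) and 30 or more (12.1% and 21.3%, with 94 stage 11.5 peaks).

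**Figure D1:**
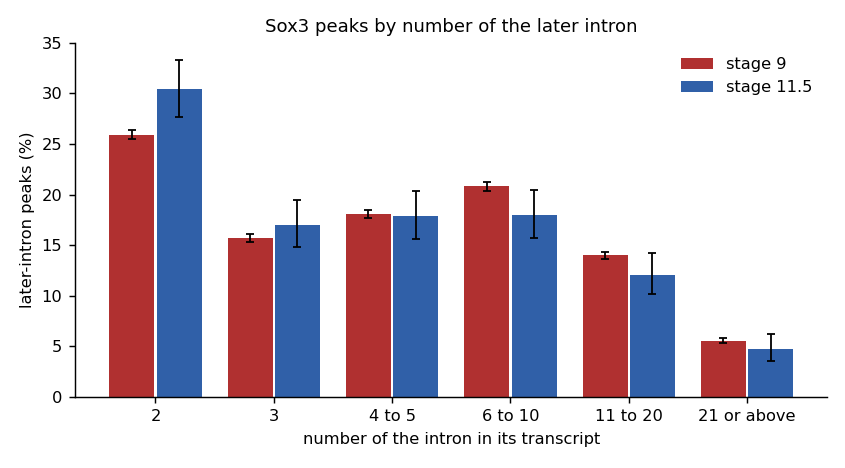
The percentage of later-intron peaks (vertical axis) is plotted by the number of the intron in its transcript for stage 9 (red, 34913 peaks) and stage 11.5 (blue, 996 peaks), with Wilson 95% intervals as bars. Intron 2 is the largest class among those drawn at both stages, with 25.9% at stage 9 and 30.4% at stage 11.5.

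The host transcripts had a median of 13 introns at stage 9 and 12 at stage 11.5. To compare transcripts of different size, the position of an intron was scaled from 0 for the first to 1 for the last intron. The median position was 0.40 at stage 9 and 0.375 (order-statistic interval 0.333 to 0.40) at stage 11.5, and the stage 9 value lay at the edge of that interval. The mean position was 0.455 and 0.448, compared with 0.571 and 0.580 if the peaks of each transcript were spread evenly over its later introns. Intron 2 would then hold 14.3% and 16.1% of the peaks rather than 25.9% and 30.4%. Introns differ in length, which was not analysed here, and an even spread over introns is therefore not an even spread over sequence.

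Within transcripts of similar intron number, the mean position was 0.470 at stage 9 and 0.449 at stage 11.5 for 5 to 9 introns. It was 0.412 and 0.370 for 10 to 19 introns, and 0.392 and 0.346 for 30 or more. The order was the opposite in both other classes, with 0.622 and 0.652 for 3 to 4 introns and 0.402 and 0.427 for 20 to 29 introns, so the classes did not share 1 direction. The last intron held 8.97% of members at stage 9 and 11.5% at stage 11.5, a difference of 2.57 points (Newcombe interval 0.709 to 4.73). In transcripts of 5 or more introns it held 4.64% and 5.16%, and the difference was 0.523 points with an interval that included 0 (-0.781 to 2.21). Transcripts of 2 introns, in which every later-intron peak is in the last intron, held 2.66% of the stage 9 and 4.42% of the stage 11.5 members. The last-intron share was higher at stage 11.5 for 3 to 4 introns (26.8% at stage 9 and 32.5% at stage 11.5) and for 5 to 9 introns (8.91% and 10.3%). It was also higher for 20 to 29 introns (2.34% and 4.97%, with 161 stage 11.5 peaks) and for 30 or more (1.36% and 3.19%, with 94 stage 11.5 peaks). For 10 to 19 introns the order turned, with 3.84% at stage 9 and 1.98% of 354 peaks at stage 11.5. The last-intron shares of these classes rest on few stage 11.5 peaks and are given without intervals.

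Most of these peaks lay far from an annotated transcription start site (TSS). The median distance from the peak centre to the nearest TSS was 15019 bp at stage 9 (order-statistic interval 14806 to 15256) and 12381 bp at stage 11.5 (11025 to 13575), compared with 5446 and 5455 bp for first introns. For all peaks outside later introns it was 8859 and 6409 bp, and for intergenic peaks 20322 and 16252 bp. A shorter distance at stage 11.5 was therefore not particular to later introns. Within 10 kb of a TSS lay 36.9% of the stage 9 and 44.0% of the stage 11.5 members, a difference of 7.06 points (Newcombe interval 3.97 to 10.2). Beyond 50 kb lay 14.7% and 10.7%. Distance rose with intron number, from a median of 8764 bp for intron 2 to 23883 bp for intron 21 and above at stage 9, and from 7021 to 22772 bp at stage 11.5.

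The nearest TSS often did not belong to the transcript whose intron held the peak. It did for 44.9% of members at stage 9 and 43.4% at stage 11.5. Where 2 or more peaks are measured against the same TSS, the signed distances fix its position and strand, and 26900 of 26900 such starts could be solved to within 2 bp. With these starts the distance to the peak's own transcript start was known for 26316 of 34913 stage 9 and 734 of 996 stage 11.5 members, and in 0 of them did the start lie downstream of the peak. The own start was unknown only for peaks whose nearest TSS was that of another transcript, 8597 at stage 9 and 262 at stage 11.5. Where such a peak had a solved own start, the median distance to it was 65708 and 54146 bp. The values over all known own starts therefore lean towards short distances. Over these, the median distance to the own start was 27571 bp (order-statistic interval 26945 to 28114) at stage 9 and 22377 bp (19296 to 25635) at stage 11.5. An own start beyond 50 kb was found for 33.1% and 27.1% of the peaks with a known own start, and beyond 100 kb for 15.7% and 11.4%.

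In the direction of the transcript that starts there, the peak lay upstream of its nearest TSS for 33.9% of members at stage 9 and 36.5% at stage 11.5, a difference of 2.66 points whose interval included 0 (-0.311 to 5.74). The share rose from 21.5% for intron 2 to 52.9% for intron 21 and above at stage 9, and from 25.7% to 55.3% at stage 11.5. Both strands were known for 9524 stage 9 and 298 stage 11.5 peaks whose nearest TSS was that of another transcript. In these, the other transcript ran in the direction of the host in 70.6% at stage 9 and in 77.2% at stage 11.5, and the peak lay upstream of such a start on the same strand in 54.9% and 60.1%. A start on the opposite strand was nearest in 29.4% and 22.8%. Whether such starts belong to other isoforms of the host gene or to other genes was not tested.

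**Figure D2:**
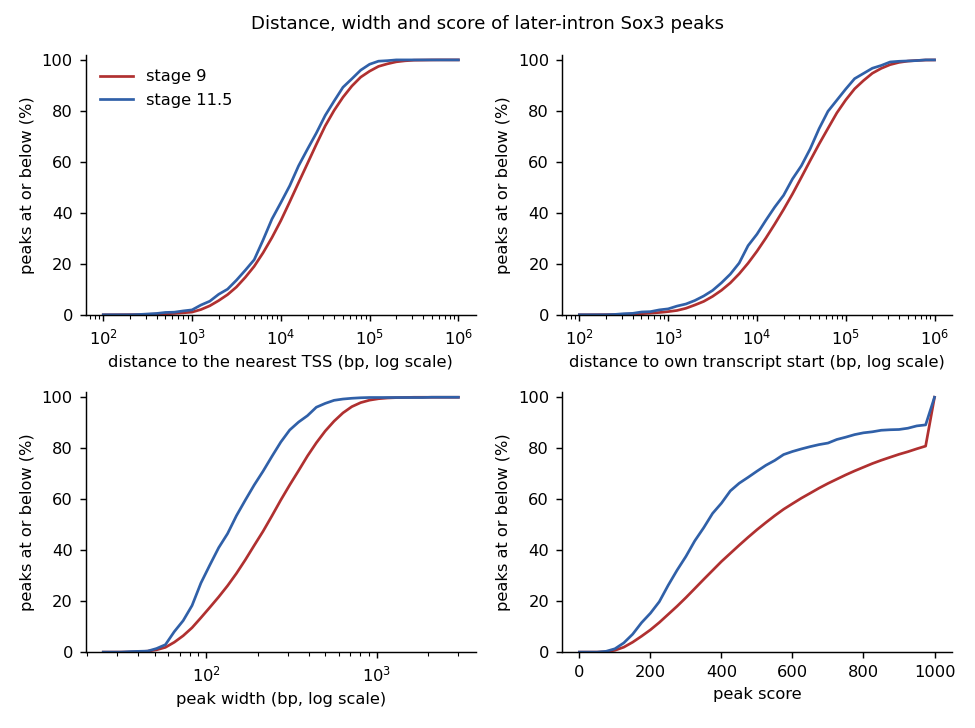
Cumulative percentages of later-intron peaks at or below each value are shown for distance to the nearest TSS, distance to the own transcript start, peak width and peak score, with stage 9 in red and stage 11.5 in blue. Distance to the own start is drawn for peaks with a known own start only. The stage 11.5 curve lies to the left for width, with medians of 141.5 bp (stage 11.5) and 227 bp (stage 9), and the curves for distance lie closer together.

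Later-intron peaks were narrower and scored lower at stage 11.5. The median width was 227 bp at stage 9 (order-statistic interval 225 to 229) and 141.5 bp at stage 11.5 (135 to 149). The peak score is a whole number given by the peak caller, with a maximum of 1000, and its median was 518 (513 to 523) at stage 9 and 353 (341 to 370) at stage 11.5. The area of a peak, taken as score multiplied by width and divided by 1000, had medians of 100 and 45.8. Since the score goes no higher than 1000, a peak at that score has an area equal to its width. Area therefore cannot separate such peaks by signal. The median widths of members were close to those of each whole list (227 and 134.5 bp), whereas at stage 11.5 the median score was below the median of 395.5 over all peaks. The median scores of first-intron (364), exonic (355) and promoter peaks (338.5) were also below it. Those of intergenic peaks (403), peaks at transcription termination sites (425) and scaffold peaks without a transcript (1000) were above it. At the maximum score were 18.3% of members at stage 9 and 10.5% at stage 11.5, compared with 18.9% and 22.1% of all other peaks. For first introns the shares were 20.4% and 9.43%, so a low share at stage 11.5 was not particular to later introns. At stage 11.5 it was 8.57% for promoter and 12.7% for exonic peaks. It was 21.4% for intergenic peaks, 23.1% at transcription termination sites and 58.6% for scaffold peaks without a transcript. Scores of the stages come from separate calls against different controls and are given side by side only.

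Width and score had no steady order along the transcript at stage 11.5. At stage 9 the median width was 236 bp in intron 2 and 218 bp in intron 21 and above, and the median score was 527 and 501. At stage 11.5 the widths of the 6 classes lay between 132 and 165 bp, and the scores between 347 and 403.5. Of the 115 stage 11.5 peaks in last introns, 20% were at the maximum score, compared with 9.31% of the 881 peaks in other later introns.

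Most later-intron sites of neural plate border explants were already in the blastula list. Of the 996 stage 11.5 members, 735 shared 1 bp or more with a stage 9 peak (73.8%, Wilson interval 71.0 to 76.4%), compared with 65.2% of all stage 11.5 peaks. The share exceeded that of all other stage 11.5 peaks by 10.5 points (Newcombe interval 7.37 to 13.5). Compared with first introns, where it was 77.1%, it differed by -3.28 points with an interval (-7.66 to 1.28) that included 0. Promoter peaks were shared in 69.2%, peaks at transcription termination sites in 68.1%, intergenic peaks in 64.5% and exonic peaks in 56.5%. The lowest share, 38.5%, was that of 527 scaffold peaks without a transcript. Without these the other peaks were shared in 66.7% and the excess of later introns was 7.08 points (3.89 to 10.12), and on the assembled chromosomes it was 5.97 points (2.71 to 9.08). Among peaks of an area of 30 to 60, 75.9% of later-intron, 82.0% of first-intron and 70.5% of intergenic peaks were shared. The order of later introns above intergenic peaks was present in each of the 5 classes of area.

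The reverse share was bound to be small, because the stage 11.5 list held 5300 peaks and the stage 9 list 124076. Of the 34913 stage 9 members, 727 (2.08%, Wilson interval 1.94 to 2.24%) overlapped a stage 11.5 peak, compared with 2.72% of all stage 9 peaks. The share differed by -0.613 points from that in first introns (Newcombe interval -0.921 to -0.321) and by -0.890 points from that in all other peaks (-1.07 to -0.700). Stage 11.5 peaks numbered 996 against 34913 stage 9 peaks in later introns, and 541 against 14951 in first introns. These differences therefore partly restate the composition of the lists. Large stage 9 peaks were shared more often, from 0.174% of 4605 peaks with an area up to 30 to 5.84% of 10715 peaks with an area above 200. For first introns of an area above 200 the share was 7.21%. At the maximum score, 8.79% of the stage 9 members were shared, and below it 0.575%. At stage 11.5 the shared fraction was also lowest in the smallest area class, with 64.5% at an area up to 30 and between 75.9% and 79.5% in the 4 larger classes. By score the direction was the opposite of that at stage 9, with 46.7% of the 105 members at the maximum score and 77.0% of those below it shared.

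The pairs of overlapping peaks were compared in place, width and score. They were selected by their overlap, so a common intron and near centres largely follow from that choice. The greater width of the stage 9 peaks also makes it likely that they enclose their partners. In 714 of the 735 pairs (97.1%) the overlapped stage 9 peak was annotated to the same intron of the same transcript, and 13 of the others were called exonic. The stage 9 peak was the wider in 95.2% of the pairs (medians 597 and 167 bp), and the stage 11.5 peak lay wholly inside it in 84.2%. The centres were a median of 68.5 bp apart (order-statistic interval 62.5 to 73.5). The overlapped stage 9 peak was at the maximum score in 78.1% of the pairs and the stage 11.5 peak in 6.67%.

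Sharing at stage 11.5 was more frequent in the early part of the transcript. Of the stage 11.5 members at a relative position up to 0.2, 81.1% (Wilson interval 76.5 to 85.0%) were shared, and the share was 77.5% at 0.2 to 0.4, 68.1% at 0.4 to 0.6, 69.2% at 0.6 to 0.8 and 72.0% from 0.8 to before the last intron. In the last intron 69 of 115 (60%, 50.9 to 68.5%) were shared. Peaks at a position up to 0.5 were shared 13.1 points more often than those beyond (Newcombe interval 7.35 to 18.9). This difference was 7.90 points (1.91 to 14.3) among peaks of at least 100 bp. The last intron differed from the other later introns by -15.6 points (-25.1 to -6.61), and by -10.8 points (-20.9 to -1.63) on the assembled chromosomes. With 1 peak per intron, the largest by area, the difference was -12.8 points (-23.1 to -3.39). Both splits were chosen after the values were seen. The peaks in the last intron were also closer to a TSS, with a median distance of 6611 bp compared with 13512 bp for the other later introns, and more often at the maximum score. The part of these features in the difference was not tested. At stage 9 the corresponding differences were 0.410 points for the position (interval 0.103 to 0.707) and 0.307 points for the last intron (-0.196 to 0.919). With the minimum area raised to 40 they were 0.202 (-0.107 to 0.497) and 0.593 (0.0694 to 1.26), so that the interval of the first then included 0 and that of the second no longer did.

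**Figure D3:**
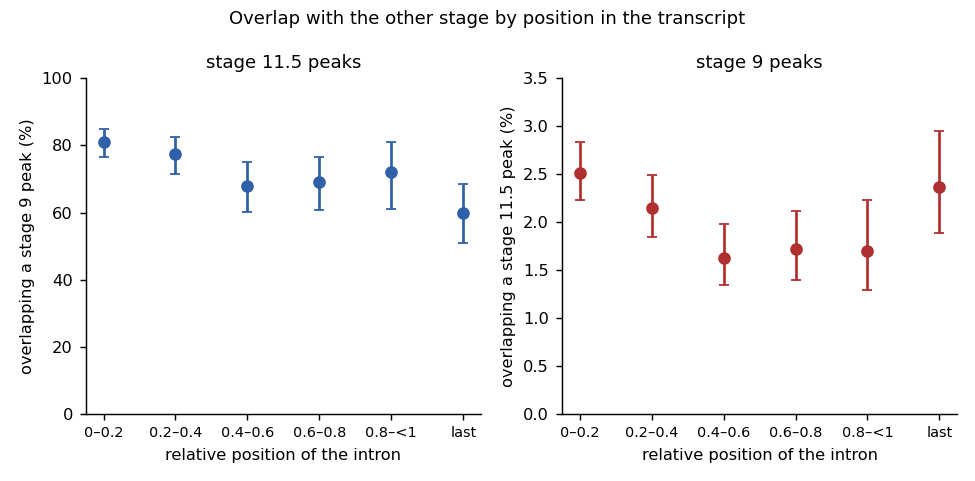
The percentage of later-intron peaks that overlapped a peak of the other stage is plotted by the relative position of the intron, for stage 11.5 peaks on the left and stage 9 peaks on the right, with Wilson 95% intervals and different vertical scales. At stage 11.5 the highest value is 81.1% at positions up to 0.2 and the lowest is 60% in the last intron, whereas at stage 9 the lowest value drawn is 1.63% at 0.4 to 0.6.

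Transcripts of many introns had the larger shared fraction at stage 11.5. It was 63.6% for transcripts of 2 introns, 67.5% for 3 to 4, 69.6% for 5 to 9, 76.8% for 10 to 19, 77.0% for 20 to 29 and 78.7% for 30 or more, although intervals of neighbouring classes overlapped. Within 1 kb of a TSS, 6 of 19 members were shared (31.6%, Wilson interval 15.4 to 54.0%), compared with 152 of 196 at 1 to 5 kb. These 19 peaks were narrow, with a median width of 88 bp, and all lay downstream of the TSS, because HOMER counts peaks just upstream as promoter peaks.

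The 261 stage 11.5 members without an overlap were narrower than the shared ones (medians 95 and 167 bp) and had the higher median score, with 411 compared with 338. Their median area was smaller, with 35.1 (order-statistic interval 32.0 to 40.7) compared with 50.8 (45.9 to 55.6). Under the minimum area of 20 a narrow peak needs a higher score to be listed, so the order by score is partly set by that limit. The members without an overlap lay later in the transcript, at a median position of 0.50 (order-statistic interval 0.455 to 0.591) compared with 0.333 (0.30 to 0.375). A stage 9 peak lay within 1 kb of 55 of them (21.1%), within 5 kb of 134 (51.3%) and within 50 kb of 251 (96.2%), with a median gap of 4708 bp. For the 1257 unshared stage 11.5 peaks of the other classes with a transcript these shares were 26.8%, 49.2% and 93.6%. The shares of later-intron peaks lay below, above and above these, and the intervals overlapped at each distance. Among the other classes, the 124 first-intron peaks had higher shares than later introns (33.1%, 58.9% and 97.6%). The 743 intergenic peaks had lower ones (20.2%, 40.9% and 93.1%). Of the 261 later-intron peaks without an overlap, 116 (44.4%) had a different stage 9 peak in the same intron. In a later intron of the same transcript one was found for 183 (70.1%). Shares by intron and by transcript were not computed for the other classes, so these values do not show whether later introns differ.

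The lists were also compared by intron and by transcript, coarser units in which nearly every pair of overlapping peaks also counts. The stage 9 members fell in 24022 introns of 13740 transcripts and the stage 11.5 members in 886 introns of 825 transcripts. Of the 886 introns, 735 (83.0%, Wilson interval 80.3 to 85.3%) also held a stage 9 peak, and of the 825 transcripts 754 (91.4%, 89.3 to 93.1%) had a stage 9 peak in a later intron. The 735 introns counted here are not the 735 overlapping peaks, since the numbers are equal only by coincidence. The shares by intron and by transcript were not computed for other classes of peak or for all annotated introns. With 124076 peaks in the stage 9 list, these shares do not show whether later introns differ from other sites.

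Later introns often held several peaks at stage 9. Of the 24022 introns, 5850 (24.4%) held 2 or more, and these contained 48.0% of the members. At stage 11.5, 80 of 886 introns (9.03%) held 2 or more, with 19.1% of the members. The lists held 34913 and 996 members, so fewer such introns at stage 11.5 partly restate the size of the lists. Neighbouring peaks of 1 intron were a median of 2507 bp apart at stage 9 and 1735 bp at stage 11.5. Under 1 kb were 31.2% of 10891 gaps at stage 9 and 45.5% (50 of 110) at stage 11.5.

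Introns with many stage 9 peaks more often held a stage 11.5 peak. The share was 1.82% of 18172 introns with 1 stage 9 peak, 4.09% of those with 2, 6.38% with 3, 12.9% with 4 to 5, 21.5% with 6 to 9 and 34.4% (22 of 64, Wilson interval 23.9 to 46.6%) with 10 or more. An intron with many peaks also offers more sites, and neither their number nor the length of the intron was accounted for.

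**Figure D4:**
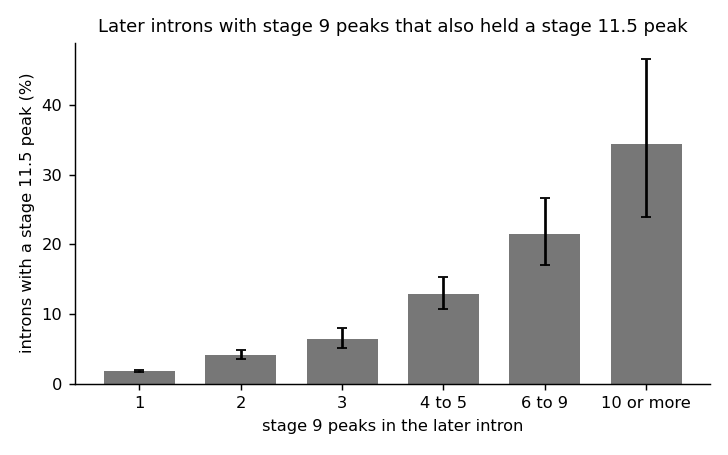
The percentage of later introns that also held a stage 11.5 peak (vertical axis) is plotted by the number of stage 9 peaks in the intron, with Wilson 95% intervals. The value rises in every class drawn, from 1.82% of introns with 1 stage 9 peak to 34.4% of introns with 10 or more.

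Single loci show the range of these patterns. On the assembled chromosomes, the later intron with the most stage 11.5 peaks was intron 4 of 9 of the transcript listed as rna95949, on chromosome 5L of the 9.2 genome. Its 6 peaks lay between positions 122974276 and 122993920, from 7304 to 26728 bp downstream of the transcript start. Nearest to the start was a peak of 295 bp at the maximum score, followed by a peak of 281 bp with a score of 84, and both lay within 1 stage 9 peak of 936 bp. A peak of 85 bp with a score of 839 and one of 65 bp with a score of 470 overlapped no stage 9 peak. A peak of 540 bp with a score of 307 and, farthest from the start, one of 148 bp with a score of 551 each overlapped a stage 9 peak at the maximum score. The same intron held 11 stage 9 peaks, of which 3 were overlapped. Of the 8 others, 3 were also at the maximum score, so that a high stage 9 score did not by itself mark the sites found again at stage 11.5.

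**Figure D5:**
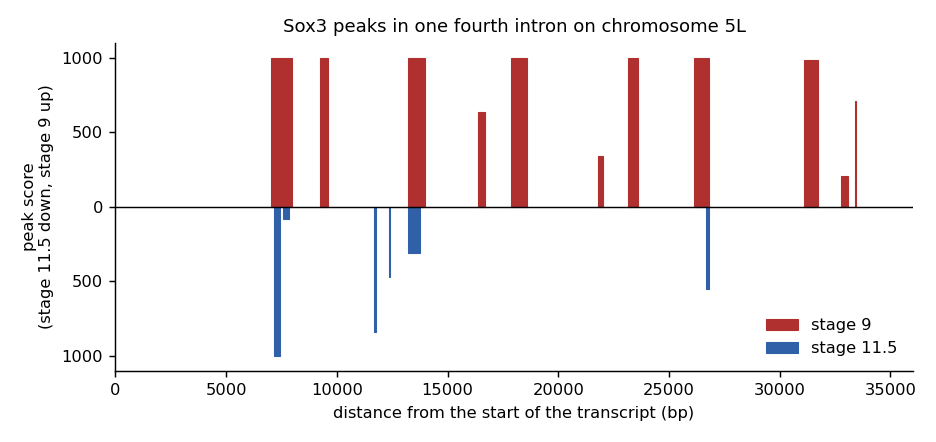
Peaks in intron 4 of the transcript listed as rna95949 on chromosome 5L are drawn by distance from the transcript start (horizontal axis, bp, bars to scale in width) and by peak score, with the 11 stage 9 peaks upward in red and the 6 stage 11.5 peaks downward in blue. The stage 11.5 peaks 7304, 7699, 13499 and 26728 bp from the start lie at stage 9 peaks, and the 2 between 11710 and 12375 bp do not.

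A later intron on each of 2 chromosomes followed with 5 stage 11.5 peaks. The larger by summed area was the last intron, 7 of 7, of rna86352 on chromosome 2S, with its peaks between 157247160 and 157397675. It included the stage 11.5 member of largest area on the assembled chromosomes, a peak of 1997 bp at the maximum score that overlapped 5 stage 9 peaks, the most of any member there. The largest of these stage 9 peaks by area was 234 bp wide. Only 1 of the 5 stage 11.5 peaks was shared. In this intron, unlike in 95.2% of the pairs, the peak of the later stage was the wider.

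Among transcripts, the next by number of stage 11.5 peaks lay on chromosome 1L (124786578 to 124794524). It had 6 peaks in introns 2 to 4 of 4, between 1491 and 9336 bp from its start, of which 5 were at the maximum score. None of them overlapped a stage 9 peak, and the transcript held 0 stage 9 peaks in later introns.

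At stage 9, 2 later introns on the assembled chromosomes held 20 peaks, the most there. The larger by summed area was intron 4 of 18 of rna91317 on chromosome 5L, with 20 peaks over 256929 bp between 26094872 and 26351800. Their widths were 66 to 857 bp with a median of 312.5 bp, their scores were 154 to 1000 with a median of 622.5, and 4 were at the maximum. At stage 11.5 this intron held 2 peaks, of 107 and 201 bp, and both overlapped stage 9 peaks below the maximum score (632 and 830). The other was intron 3 of 17 of rna79864 on chromosome 5S, over 362446 bp. The same 2 transcripts had the most later-intron peaks on the assembled chromosomes, with 50 peaks in 10 introns of rna91317 over 1281451 bp and 48 peaks in 8 introns of rna79864 over 1259063 bp. They carried 2 and 1 stage 11.5 members, all of them shared.

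The stage 9 peaks of largest area were found with and without a stage 11.5 peak. Between peaks at the maximum score, the order by area is an order by width alone. The largest on the assembled chromosomes was 2227 bp wide and at the maximum score, in intron 2 of 2 on chromosome 9_10L (2929238 to 2931464), 8203 bp from the start of its transcript, and its nearest stage 11.5 peak was 277993 bp away. The next unshared peaks by area were 1980 bp wide on chromosome 5L (19642869 to 19644848) and 1854 bp wide on chromosome 1S (63275097 to 63276950), both in intron 2. The 3 largest shared peaks were 1894 bp wide on chromosome 5S (58488948 to 58490841, intron 2 of 3), 1885 bp on chromosome 7S (23039764 to 23041648, intron 13 of 20) and 1640 bp on chromosome 2L (149576978 to 149578617, intron 2 of 8). Their stage 11.5 partners were 191, 133 and 206 bp wide with scores of 308, 451 and 304, and the first of these was itself annotated as a promoter peak.

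Among stage 11.5 members, the next largest shared peaks were 819 bp wide on chromosome 9_10L (107852686 to 107853504, intron 3 of 10) and 744 bp on chromosome 1S (105820417 to 105821160, intron 3 of 3), both at the maximum score. The first of these was centred 1.5 bp from a stage 9 peak of 682 bp. The largest unshared peaks were 560 bp on chromosome 3S (22995196 to 22995755, intron 2 of 2), 508 bp on chromosome 8L (52247826 to 52248333, intron 14 of 16) and 371 bp on chromosome 2L (174530175 to 174530545, intron 2 of 15). Their nearest stage 9 peaks were 15985, 38605 and 327 bp away. The member of the highest intron number at stage 11.5 lay in intron 115 of 118 on chromosome 8L (77658930 to 77659163), 192623 bp from its transcript start, and it overlapped a stage 9 peak. At stage 9 it was intron 136 of 136 on chromosome 5L, with 2 peaks of 301 and 137 bp and scores of 217 and 294, and neither was shared.

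On the chromosomes, later-intron peaks were less frequent in the S than in the L subgenome, as were the peaks of each whole list, of which 44.8% at stage 9 and 42.3% at stage 11.5 lay on S chromosomes. The S chromosomes carried 14295 of 33234 members at stage 9 (43.0%) and 359 of 942 at stage 11.5 (38.1%), a difference of -4.90 points (Newcombe interval -8.00 to -1.71). At stage 11.5 they carried 43.5% of the other peaks, and the share of later-intron peaks was 5.39 points below this (interval of the difference -8.87 to -1.84). The shared fractions at stage 11.5 were 75.6% on L and 73.0% on S chromosomes, a difference of 2.66 points with an interval (-3.00 to 8.51) that included 0. The amount of intronic sequence in each subgenome was not analysed here.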

How the data were processed

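Sox3 ChIP-seq libraries of stage 9 and stage 11.5 explants (3 Sox3 and 3 control libraries per stage) were processed by the authors with fastp, bowtie2 on the Xenopus laevis genome (9.2), samtools and Genrich (minimum area 20, mitochondrial sequence excluded), and annotated with HOMER against a Xenbase gene set, per the file headers. Picard is also named in the submitters' processing notes, without its role. The deposited peak score is that of the peak caller, relative to the control libraries and limited to 1000. The distance deposited by the authors is that of the peak centre to the nearest TSS in bp.

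From the lists, coordinates (1-based), widths, areas, intron numbers, overlaps of at least 1 bp and gaps were computed with Python 3.11.15, numpy 2.4.6, pandas 2.3.3 and scipy 1.17.1, and plotted with matplotlib 3.10.9. Shares have Wilson intervals, differences of shares Newcombe intervals, and medians binomial order-statistic intervals, all at 95%. No test was made, because each stage has 1 list and peaks are not replicates. Transcript starts were solved from signed distances with a tolerance of 2 bp. Overlap, annotation, starts and the intervals of medians were tested on simulated data, whereas the Wilson and Newcombe intervals were not.

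Peaks named singly are those of largest area, shared and unshared, of the highest intron number and of the introns and transcripts with most peaks, on the assembled chromosomes. Ties were ordered by summed area. Area is capped along with the score, so peaks at the maximum score were ranked among themselves by width alone. The introns and transcripts next in number of peaks were added after the values were seen. The members and this rule were chosen with earlier results of these data known. Alternatives covered the minimum area, scaffolds, repeated peaks of an intron, the overlap rule and the TSS used. Depth per sample is unknown. No sequence is shown, as no genome of build 9.2 was used here.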

Additional observations from a re-analysis of the deposited data

How the results depend on the processing

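Of 77 comparisons with an alternative, 51 stayed within the 95% counting interval of the value given, 25 moved outside it and 1 reversed. The cause was not tested, apart from the smaller sets that the alternatives leave by construction. With the minimum area raised to 40, later introns held 17.4% of stage 11.5 peaks, the median widths of stage 9 and stage 11.5 members were 277 and 198 bp, the median scores 631 and 501, and the shared shares 1.57% and 77.2%. On the assembled chromosomes later introns held 28.8% of stage 9 and 21.7% of stage 11.5 peaks. With 1 peak per intron, the largest by area, the stage 9 medians were intron 5, position 0.452, 13208 bp from the TSS, 254 bp width and a score of 575, and 2.42% were shared. In transcripts of 5 or more introns the stage 9 median position was 0.367. Where the nearest TSS was that of the host transcript, the median distances of stage 9 and stage 11.5 members were 14116 and 10305 bp. The stage 9 shared share was 0.501% with at least 50% of the peak covered, 1.32% by midpoint and 2.68% within 1 kb, and the stage 11.5 share within 1 kb was 79.3%. The stage 9 difference of the last intron, whose interval included 0, reversed to -0.196 points below the maximum score, an alternative added after the data were seen. Of the alternatives added after the data were seen, the excess of stage 11.5 sharing over all other peaks was 7.08 points without peaks that have no transcript and 5.97 points on the assembled chromosomes, and the difference in last-intron share was 0.523 points in transcripts of 5 or more introns. The stage 9 difference by position was 0.202 points at a minimum area of 40, and its interval then included 0. The stage 11.5 differences by position and for the last intron kept their direction in each of the 6 alternatives, all added after the data were seen.

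No paired analysis was possible because the 3 libraries of a stage enter 1 peak list without values of their own, and leaving one out could not be done either. Unknown depth limits every comparison of the number of peaks between the stages.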

Other observations

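Chromosome 6S carried few later-intron peaks at stage 11.5. It held 17 of them (1.71% of members, Wilson 95% interval 1.07 to 2.72%), compared with 1443 at stage 9 (4.13%). This is 1.18 stage 11.5 members per 100 stage 9 members, whereas the other assembled chromosomes had between 2.08 on 6L and 4.56 on 8L. The ratio was also lowest on 6S for all other peaks, with 3.08 stage 11.5 peaks per 100 stage 9 peaks compared with 3.45 to 5.07 elsewhere. Of the 1443 stage 9 members on 6S, 8 (0.554%) overlapped a stage 11.5 peak, and of the 17 stage 11.5 members 8 were shared. The chromosome was singled out after its values were seen among the 18 chromosomes, and the difference was not tested.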
